A study of Rattus norvegicus with 8 samples.

Results

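The cells described here are 1240 cells of the rat liver, labelled natural killer (NK) cells, that carried transcripts of both Klrg1 and Gzmk. They were selected from 32170 droplet barcodes of 8 single-cell libraries, and they make up 3.85% of these barcodes. A cell belonged to the population when its barcode held at least 1 transcript of Klrg1 and of Gzmk, no transcript of the T cell genes Cd3d, Cd3e and Cd3g, no transcript of the myeloid gene Clec4a3, and at most 2 transcripts summed over the Ly49 receptor genes Klra22, Klra5, Ly49s6, Ly49i3 and Ly49s5. A transcript is counted here as a unique molecular identifier (UMI), and barcodes entered with at least 500 UMIs and under 20% of UMIs from 13 mitochondrial genes. Since the cells were chosen by these measured values, their levels of the genes in the rule are a description and carry no test. The name NK cells is a label, since T cells whose CD3 transcripts were missed can also pass the rule.

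NK cells are innate lymphocytes that are abundant in the liver and kill infected or altered cells without prior sensitisation. They store perforin and granzymes in cytotoxic granules, and balance signals from activating and inhibitory receptors before they release them. KLRG1 is an inhibitory receptor that binds cadherins and marks mature, terminally differentiated NK cells and effector T cells, and granzyme K is one of the granule proteases.

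The cells came from livers of male Han Wistar rats, and no genotype or transgene is given for them. Immune cells were separated on Lymphocyte Separation Medium after lysis of erythrocytes, so the barcodes represent a density fraction and not the whole organ. Rats NC1 and NC2 served as negative controls on an amino acid-defined diet with enough choline (CSAA). Rats PC1 and PC2 were positive controls on the same kind of diet without choline (CDAA), which produces fatty liver and inflammation in rats. The age of the animals and the weeks on diet are not given in the sources used here. Cells of every rat were sequenced fresh and again after 3 weeks of cryopreservation in dimethyl sulfoxide (DMSO). Effects of preservation and of the later processing day cannot be told apart. Of the 1240 cells, 565 were fresh and 675 were DMSO preserved. No barcode of the population was shared between libraries, while any pair of the 8 libraries shared 10 to 29 of all barcodes.

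The sampling was uneven. PC2 gave 727 of the 1240 cells, which is 58.6%. The fresh libraries of NC1, NC2, PC1 and PC2 held 73, 58, 104 and 330 cells of the population, and their preserved libraries 66, 72, 140 and 397. The UMIs summed over the cells ran from 233565 in fresh NC2 to 2034618 in preserved PC2. A cell held a median of 3444 to 4952 UMIs and 1198 to 1579.5 genes, depending on the library. Values of NC1 and NC2 therefore rest on the fewest cells and UMIs.

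Before any gene is compared, the free RNA of the libraries has to be measured. Every cell of the population held at least 1 UMI of Lyz2, a lysozyme gene of myeloid cells, and 93.7% to 100% of the B cells of the libraries did as well. B cells were taken as barcodes with Cd79a and Cd79b and without CD3 and Clec4a3, and they held no more than 3289 UMIs in the median of any library. Between 33.9% and 77.3% of B cells carried a UMI of Gzmk, and 2.42% to 13.3% a UMI of Klrg1. At 1000 UMIs per cell, to which deeper cells were thinned, 66.7% to 92.2% of the NK cells and 17.2% to 39.8% of the B cells still showed Gzmk. For Klrg1 these shares were 25.4% to 41.7% and 0.735% to 2.70%. The NK cells were selected for both genes, so their shares carry no test, and the shares of B cells show how often 1 UMI was found in another cell type.

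Most cells passed the rule on 1 UMI of Klrg1 but on several of Gzmk. Klrg1 was counted once in 821 cells and at least 2 times in 419. Gzmk was counted once in 131 cells and at least 2 times in 1109. Cells with 1 UMI of Gzmk had a median of 258 CPM (UMIs of a gene per 1000000 UMIs) for Gzmb and 7612 for Ccl5, against 979 and 28644 in cells with 2 or more. Just outside the rule lay 5283 barcodes without Klrg1, 122 without Gzmk and 217 with 3 or more Ly49 UMIs. A further 795 barcodes held exactly 1 CD3 UMI, with median levels of 924 CPM for Gzmb and 3187 for Nkg7, and 977 held 2 or more, with 394 and 1638. The cells with 1 UMI of Klrg1 inside the rule had 773 and 3193. In granule genes, the barcodes with 1 CD3 UMI were thus close to the population, and the line drawn at CD3 cuts through barcodes of similar content.

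The label of NK cells was checked against defining genes that the rule did not use. Ncr1, which encodes the activating receptor NKp46, was seen in 43.6% to 62.7% of the cells per library and in 1.61% to 19% of B cells. Klrd1, which encodes CD94, was seen in 84.9% to 92.3%, against 23.4% to 58.3% of B cells. Tbx21, the transcription factor T-bet of mature NK cells, was seen in 30.2% to 50%, against 3.23% to 10.9%. Tyrobp, the DAP12 adaptor of activating receptors, was the most abundant of the 9 NK markers in the files, at 5515 to 6533 CPM. Eomes, another defining NK transcription factor, was nearly absent, with 7 of 1240 cells holding a UMI and no UMI in 5 of the 8 libraries. The T cell gene Cd28 had no UMI in 6 of 8 libraries, and the naive lymphocyte gene Il7r was seen in at most 2.14% of cells. Cd6, a T cell co-receptor, was seen in 5.56% to 10.8% of the cells and in 9.18% to 22.4% of the barcodes that met the rule but carried CD3. Ncr1, Klrd1 and Tbx21 were thus seen more often than in B cells, which held fewer UMIs, while Eomes went against the label. Barcodes with 1 CD3 UMI had medians of 200 CPM for Ncr1 and 1079 for Klrd1. Cells of the population with 1 UMI of Klrg1 had 198 and 1063, so these genes did not separate the 2 groups. Barcodes with 2 or more CD3 UMIs had 89.0 and 597. Tyrobp, at a median of 3846 CPM in B cells and with a log2 ratio of -0.03 over all other barcodes, did not set the population apart from the rest, and the range of Cd6 overlapped that of the barcodes with CD3. T cells in which CD3 transcripts were missed cannot be told apart from NK cells by the rule.

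As a share of all barcodes, the population was higher in CDAA livers and, within each animal, higher after preservation. As a share of NK-type barcodes, those with Nkg7 and without CD3 and Clec4a3, the population was not higher after preservation in PC2, and the diets overlapped when both libraries of an animal were averaged. In fresh libraries it was 1.58% of barcodes in NC1 (95% exact binomial interval 1.24% to 1.98%) and 1.40% in NC2 (1.07% to 1.81%). It was 2.52% in PC1 (2.07% to 3.05%) and 7.88% in PC2 (7.08% to 8.73%). After preservation NC1 had 1.86%, NC2 2.1%, PC1 3.59% and PC2 9.40%. Intervals cover counting error only.

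Preserved libraries had a larger share in 4 of 4 animals. The mean paired difference was 0.889 ± 0.531 percentage points (SD, n = 4, two-sided p = 0.125 in an exact permutation test, the smallest p that 4 pairs allow). When all barcodes were thinned to 1000 UMIs the difference was 0.368 ± 0.203 percentage points (SD, n = 4), again with 4 of 4 higher. As a share of the NK-type barcodes, the population was larger in 3 of 4 animals, not in PC2, and the mean difference came to 2.78 ± 2.36 percentage points (SD, n = 4, two-sided p = 0.25 in an exact permutation test). The Klrg1-negative NK cells, which had Nkg7 and Xcl1, no Klrg1 and the same limits on CD3, Clec4a3 and Ly49, went from 10.1%, 11.5%, 18.4% and 16.6% of barcodes in fresh NC1, NC2, PC1 and PC2 to 4.08%, 7.99%, 18.8% and 21.8%. Their mean difference was -0.979 ± 4.93 percentage points (SD, n = 4, p = 0.75 in an exact permutation test). The name of these cells rests on the limits above alone, and no background share of Nkg7 or Xcl1 is given here. Cells whose Klrg1 transcripts were missed can be among them, since library medians were 2427 to 3890 UMIs per cell and 821 cells of the population held 1 UMI of Klrg1.

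Averaged over both libraries of an animal, the population took 1.72% and 1.75% of barcodes in CSAA animals and 3.06% and 8.64% in CDAA animals. The means differed by 4.11 percentage points, and the groups did not overlap (n = 2 animals per diet, exact permutation test, two-sided p = 0.333, the smallest p that 2 against 2 allows). Without PC2 the difference was 1.32 percentage points. Thinned to 1000 UMIs per barcode, it was 1.18 percentage points and the groups overlapped, since PC1 at 1.52% lay between the CSAA animals at 1.42% and 1.73% (exact permutation test, n = 2 per diet, p = 0.667). In the fresh libraries alone the thinned shares were 1.27% and 1.41% on CSAA and 1.44% and 3.81% on CDAA diet, and did not overlap (exact permutation test, n = 2 per diet, p = 0.333). As a share of NK-type barcodes, also averaged over both libraries, PC1 at 8.87% lay below both CSAA animals, which had 9.20% and 9.44%, and PC2 stood at 20.5% (exact permutation test, n = 2 per diet, p = 1). In the fresh libraries alone the shares of NK-type barcodes were 6.94% and 6.96% on CSAA and 8.03% and 20.5% on CDAA diet, and did not overlap (exact permutation test, n = 2 per diet, p = 0.333).

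**Figure D1:**
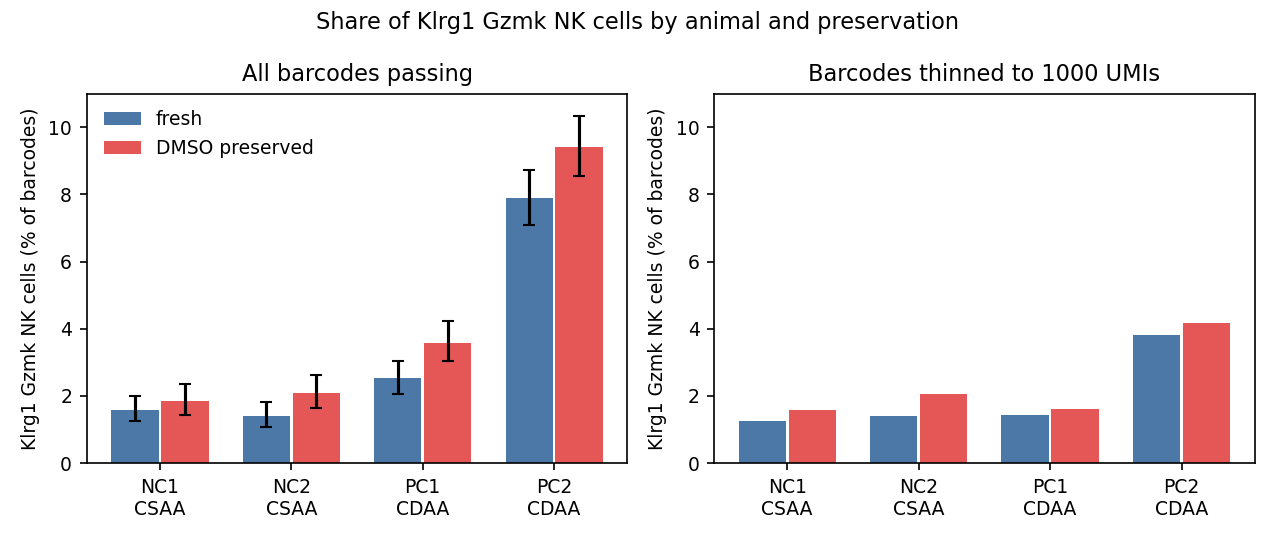
Share of Klrg1 Gzmk NK cells in percent of barcodes (vertical axes) for each animal and diet (horizontal axes), fresh in blue and DMSO preserved in red; the left panel uses all passing barcodes with 95% exact binomial intervals, the right panel barcodes thinned to 1000 UMIs. PC2 stands highest in both panels, at 7.88% and 9.40% on the left.

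Measures of cell quality differed after preservation in the same direction as in the rest of the barcodes. The median UMIs per cell were 3478, 4055.5, 4818.5 and 4952 in fresh NC1, NC2, PC1 and PC2, and 3444, 3814, 4764 and 4460 after preservation. They were lower in 4 of 4 animals, and differed by a mean of -205.5 ± 212.6 UMIs (SD, n = 4, two-sided p = 0.125 in an exact permutation test). In all other barcodes the difference was -187.5 ± 149.2 UMIs. The difference in detected genes was -85.1 ± 28 per cell, and -8.80 ± 6.44 at 1000 UMIs per cell, where 3 of 4 animals were lower. The share of mitochondrial transcripts, which is high in damaged cells, was lower in 4 of 4 animals, with a difference of -0.776 ± 0.439 percentage points in the population and -0.781 ± 0.492 in the other barcodes.

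The population was rich in the transcripts of the cytotoxic granule. Levels are given as CPM over the summed cells of a library, which count molecules and carry no gene length. Of 1565 genes at 50 CPM or more in each of the 8 sums, 240 were higher than in all other barcodes in 8 of 8 libraries. Because the population was cut out by its transcripts, these ratios describe the cells and no test was made. They are given as the median log2 ratio over the 8 libraries.

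Gzmb, the granzyme that triggers apoptosis in target cells, reached 888, 1366, 716 and 1169 CPM in fresh NC1, NC2, PC1 and PC2, and 894, 1204, 606 and 951 after preservation. The highest level in all other barcodes was 354, so no library overlapped. The log2 ratio was 1.91 over the other barcodes and 1.69 over Klrg1-negative NK cells. Prf1, the pore-forming perforin, reached 2455, 2774, 1978 and 3839 in fresh libraries and 2274, 2793, 1934 and 2729.8 in preserved ones, with log2 ratios of 1.83 and 1.38. Gzmb and Prf1 were found together in 985 of the 1240 cells, and 49 cells held neither. B cells of the same libraries ran from 60.6 to 248 CPM for Gzmb and from 167 to 784 for Prf1.

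The other granule genes followed. Gzma, the tryptase of the granule, had a median of 4053 CPM (2914 to 5057) and a log2 ratio of 1.57 over other barcodes. Gzmm stood at 3339.6 (3007 to 3875) with a log2 ratio of 1.17, and Faslg, the Fas death ligand, at 191 (131 to 224) with 1.63. Serpinb9, an inhibitor that protects the killer cell from granzyme B, had a log2 ratio of 1.23. Gzmc and Gzmf, granzymes of activated killer cells in rodents, were at or near 0, with medians of 0 and 0.591 CPM. Ctsw, a cathepsin of cytotoxic lymphocytes, was lower than in other barcodes in 8 of 8 libraries, with a log2 ratio of -0.60.

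Receptor genes of NK cells, summed over the 28 in the files, were higher than in other barcodes in 8 of 8 libraries, for example 5555 against 3195 CPM in fresh NC1, while Crtam and Klrh1 were at 0 in all 8. The 19 signal adaptors and kinases summed to more than in other barcodes in 8 of 8 libraries, from 12247 against 11974 CPM in fresh PC1, the smallest gap, to 11272 against 8930 in preserved NC2, the widest. Tyrobp, the most abundant of them, had a log2 ratio of -0.03. Ccl5, a chemokine that draws T cells and monocytes, was the most abundant of the cytokines and chemokines at 22814 to 29119 CPM, with a log2 ratio of 1.64. The granule membrane gene Nkg7 had a log2 ratio of 1.35, Klrd1 of 1.34, Ncr1 of 1.42, and Klrb1b, an inhibitory receptor of the NKR-P1 family, of 1.34. Cd8a, which rat NK cells express, had a log2 ratio of 1.01. The T-bet gene Tbx21 stood at a median of 122 CPM with a log2 ratio of 1.31, and Il2rb, the receptor chain shared by interleukin 2 and interleukin 15, at 758 with 0.98. The kinase genes Txk, Zap70 and Lck had log2 ratios of 1.43, 1.05 and 0.95. Klrg1 itself, by the rule, stood at 321 (259 to 471) and Gzmk at 2814 (2017 to 3083).

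Among genes at 50 CPM or more in each of the 8 sums, the largest ratios were not those of granule genes. After Klrg1, with a log2 ratio of 3.54 over other barcodes, came Focad with 2.14, Nrgn, the calmodulin-binding neurogranin, with 2.1, and Spint1, a serine protease inhibitor, with 2.05, followed by Gzmk, Gzmb and Prf1. The neurotrophic receptor gene Gfra3 had 1.67, and Cd24, a surface glycoprotein, 1.56. All of these were higher in 8 of 8 libraries. Against the 808 barcodes with 3 or more Ly49 UMIs and no CD3 and Clec4a3, with or without Klrg1 and Gzmk, Focad, Nrgn and Spint1 remained higher in 8 of 8 libraries, with log2 ratios of 0.71, 0.60 and 0.92.

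Against these Ly49-rich barcodes, NK genes differed in both directions. Nkg7 had a log2 ratio of -0.05 and Klrd1 of 0.01, while Gzmb was higher in 8 of 8 libraries with 0.56. This did not hold for the 217 Ly49-rich barcodes that also carried Klrg1 and Gzmk. Their medians were 995 CPM for Gzmb and 3062 for Prf1, against 976 and 2449 in cells of the population without a Ly49 UMI. Gzmm and Lck were lower in 8 of 8, with -0.27 and -0.32. Xcl1, a chemokine for cross-presenting dendritic cells, was lower in 8 of 8 with -1.41. Over all other barcodes the log2 ratio of Xcl1 was -0.15, and 2 of 8 libraries were higher. Cxcr3 and Fcgr3a, a chemokine receptor and an Fc receptor gene, were lower than in other barcodes in 8 of 8 libraries, with -0.58 and -0.45.

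**Figure D2:**
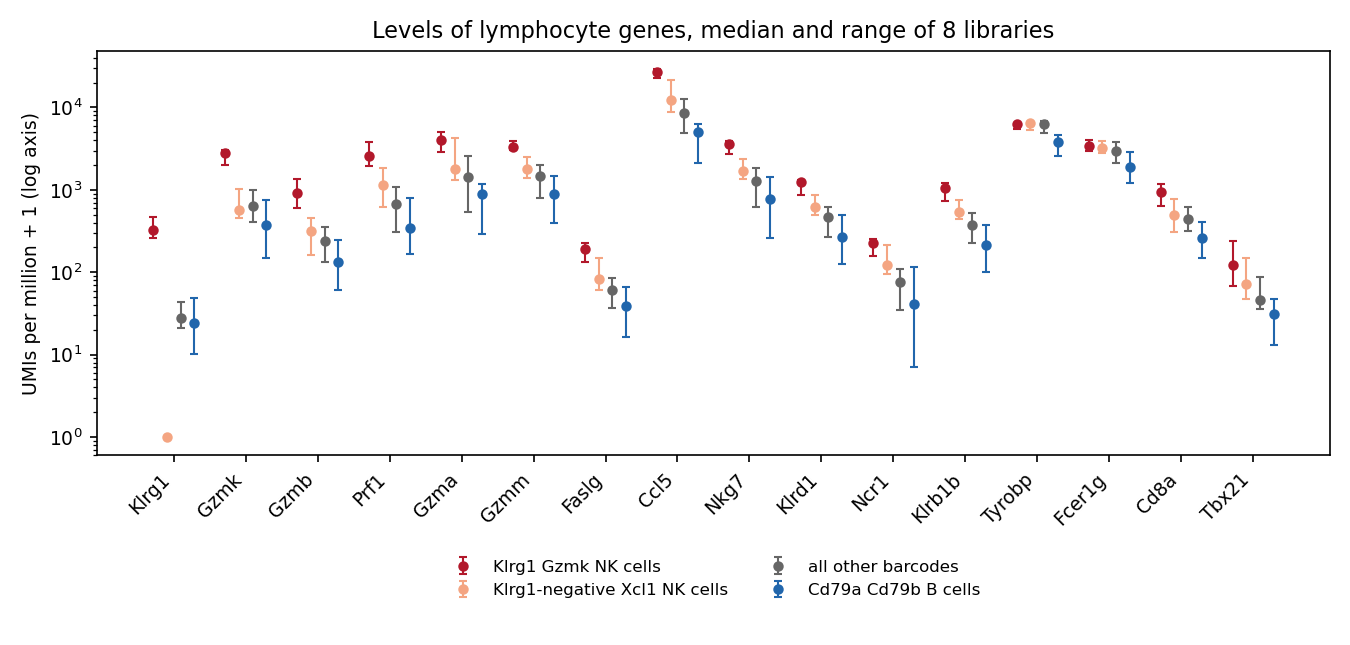
Levels of 16 lymphocyte genes (horizontal axis) as CPM plus 1 (vertical log axis) in Klrg1 Gzmk NK cells, Klrg1-negative NK cells, all other barcodes and B cells; points are the median and bars the range of 8 libraries. Gzmb and Prf1 of the Klrg1 Gzmk NK cells lie above the ranges of all other barcodes and of B cells, and Tyrobp, with a log2 ratio of -0.03 over other barcodes, does not.

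A small set of genes differed between fresh and DMSO preserved cells of the population, led by immediate early genes. Immediate early genes are switched on within minutes of a stimulus or stress without new protein synthesis, and many encode subunits of the AP-1 transcription factor or proteins that end the response. Of 3739 genes tested, 19 rose at least 2-fold (0.508%) and 6 fell (0.16%) at an adjusted p under 0.05 (edgeR quasi-likelihood test on UMIs summed per library, animal as a block, Benjamini-Hochberg adjustment). Without a fold minimum 111 genes passed (2.97%), 58 higher and 53 lower. The 19 genes that rose did so in 4 of 4 animals. The calls were 12 higher and 0 lower without the block, 11 and 1 with DESeq2, 16 and 0 without PC1, 12 and 2 without PC2, 30 and 12 without NC1, and 25 and 8 without NC2, so the lower calls did not hold under several of these settings.

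The promoters of 3 of these genes are shown because they share the letters of the cAMP response element (CRE), TGACGTCA, through which CREB and related factors act on immediate early genes. The sequences are RefSeq windows of the rat assembly GRCr8, from 250 bases before to 50 bases after the gene start, read 5′ to 3′ on the strand of the gene. Capitals mark the CRE and, in Ppp1r15a, also an AP-1 site, TGANTCA. Dusp1 lies at chr10:17184603-17184902 on the plus strand, Ppp1r15a at chr1:105139547-105139846 on the minus strand, and Btg2 at chr13:48087641-48087940 on the minus strand.
Dusp1: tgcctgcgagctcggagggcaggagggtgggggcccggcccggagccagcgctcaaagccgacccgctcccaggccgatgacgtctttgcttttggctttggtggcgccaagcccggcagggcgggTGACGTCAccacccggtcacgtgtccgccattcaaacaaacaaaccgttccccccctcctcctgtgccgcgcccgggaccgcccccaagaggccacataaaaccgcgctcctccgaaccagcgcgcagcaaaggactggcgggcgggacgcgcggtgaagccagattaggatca
Ppp1r15a: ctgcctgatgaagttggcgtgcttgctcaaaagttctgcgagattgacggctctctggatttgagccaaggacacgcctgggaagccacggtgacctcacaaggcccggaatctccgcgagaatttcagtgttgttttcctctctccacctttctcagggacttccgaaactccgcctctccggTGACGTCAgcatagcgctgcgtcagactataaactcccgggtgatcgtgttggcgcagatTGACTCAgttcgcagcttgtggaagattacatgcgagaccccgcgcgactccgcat
Btg2: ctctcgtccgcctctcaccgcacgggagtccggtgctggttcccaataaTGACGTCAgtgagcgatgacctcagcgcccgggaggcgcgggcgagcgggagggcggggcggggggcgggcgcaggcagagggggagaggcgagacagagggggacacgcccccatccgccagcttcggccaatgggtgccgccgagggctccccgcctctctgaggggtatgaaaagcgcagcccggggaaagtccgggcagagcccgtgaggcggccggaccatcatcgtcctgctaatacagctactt

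The CRE began 124 bases before the start of Dusp1, 66 before that of Ppp1r15a and 201 before that of Btg2. Promoters were found for 15 of the 19 genes that rose, not for Fos, Jun, Ccl3 and Ube2c, and Cdkn3 had 2 windows. Searched on both strands, the CRE was in a window of 3 of these 15 genes, and in 612 of all 33469 windows of the same length (1.83%). The AP-1 site was in 1 of the 15 genes and 7.33% of all windows. The CArG box, to which serum response factor binds, was in 2 of the 15 genes, Klf6 and Zfp36, and 1.64% of all windows. In the 3 promoters found for the 6 genes that fell, none of these letters occurred. A match of letters is a description and not a bound site.

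Among AP-1 subunits, Fosb was nearly silent in fresh cells. It had 11.6, 4.28, 0 and 0.591 CPM in fresh NC1, NC2, PC1 and PC2, where no library held more than 3 UMIs, and 523, 1197, 429.6 and 438 after preservation. Its log2 fold change was 7.98 ± 0.27 (SE, adjusted p = 1.9e-14, edgeR), a value that rests on few fresh UMIs. The SE was derived from the test statistic. For Fosb it is smaller than counting error of the fresh UMIs and understates the uncertainty. A UMI of Fosb was seen in at most 4.11% of fresh cells and in 77.9% to 93.1% of preserved cells per library.

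Fos rose from 100.4, 21.4, 13.2 and 18.9 CPM in fresh NC1, NC2, PC1 and PC2 to 1208, 1521, 799 and 1065. The log2 fold change was 5.27 ± 0.23 (SE, adjusted p = 8e-13, edgeR), and the groups did not overlap although fresh NC1 stood above the other fresh libraries. Jun rose from 19.3, 21.4, 26.5 and 18.9 to 539, 733, 284 and 577, with a log2 fold change of 4.62 ± 0.18 (SE, adjusted p = 2.4e-13). Junb rose from 328, 193, 185 and 173 to 869, 849, 374 and 692, with a log2 fold change of 1.67 ± 0.14. Preserved PC1 had the lowest level of Jun and Junb among the preserved libraries.

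Several genes that limit such responses rose as well. Dusp1, a phosphatase that inactivates MAP kinases, stood at 119.7, 30.0, 37.8 and 29.6 in fresh and 181, 304, 148 and 274 CPM in preserved NC1, NC2, PC1 and PC2 (log2 fold change 2.46 ± 0.26). With 1 animal left out, its log2 fold change ran from 1.79 (without PC2) to 2.94 (without NC1). In fresh NC1, 11 of its 31 UMIs came from 1 cell. Zfp36, which promotes decay of cytokine mRNAs, stood at 100.4, 94.2, 94.5 and 75.7 in fresh and 189, 368, 207 and 266 in preserved cells (log2 fold change 1.55 ± 0.15). In both genes every preserved library exceeded every fresh library. Btg2, an antiproliferative gene, had a log2 fold change of 1.18 ± 0.12. Ppp1r15a, which restores translation after stress, rose from 27.0, 8.56, 28.3 and 21.3 to 60.4, 106, 54.7 and 77.2 (log2 fold change 1.71 ± 0.24), and Klf6, a zinc finger factor, from 57.9, 64.2, 54.8 and 58.5 to 193, 205, 111 and 197 (1.59 ± 0.15). Without PC2, which gave most of the cells, Ppp1r15a missed the threshold at a log2 fold change of 1.54.

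The remaining genes among the 10 with the largest increases act in chemokine signalling. Rgs1, which dampens chemokine receptor signals, rose from 135, 72.8, 86.9 and 94.6 CPM to 274, 484, 215 and 521 (log2 fold change 2.01 ± 0.18). Ccl3, the inflammatory chemokine MIP-1α, rose from 483, 269.7, 276 and 388 to 805, 1896, 831 and 1638 (1.83 ± 0.18). For Rgs1 and Ccl3 the lowest preserved library lay above the highest fresh library. Its relative Ccl4 rose by less than 2-fold, with a log2 fold change of 0.86 ± 0.13 (SE, adjusted p = 0.00062, edgeR).

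A few genes outside these groups also rose, among them Cd24 (log2 fold change 1.51 ± 0.12) and the mitosis genes Ube2c (1.51 ± 0.23), Cdc20 (1.40 ± 0.29), Cdkn3 (1.18 ± 0.29) and Birc5 (1.01 ± 0.24). Counts of Cdc20 were low, with 1, 1, 3 and 39 UMIs in fresh NC1, NC2, PC1 and PC2 and 10, 9, 24 and 93 UMIs in their preserved libraries. Of the 7 tested genes on the cell cycle list, Birc5 rose 2-fold and Hmgb2 by less, against 0.508% of all genes higher at 2-fold and 2.97% called at any fold, and the median log2 fold change was 0.33. Of the 6 genes that fell, 2 did so in 4 of 4 animals, Ndufc1 and Samhd1. Ndufc1, a subunit of respiratory complex I, went from 38.6, 68.5, 37.8 and 44.3 to 36.2, 17.1, 16 and 17.7 CPM (log2 fold change -1.23 ± 0.25, SE, adjusted p = 0.0059, edgeR), and in NC1 the change was small. The call of Ndufc1 was lost without PC1 (adjusted p = 0.079, edgeR) and without PC2 (0.28). Its log2 fold change was -1.23 without PC1 and -1.10 without PC2. Samhd1, a hydrolase of deoxynucleotides, went from 38.6, 34.3, 56.7 and 59.1 to 12.1, 23.9, 24.0 and 30.0 (-1.04 ± 0.21, adjusted p = 0.0059). Every preserved library of Samhd1 lay below every fresh one. Without PC1 or without PC2, Samhd1 was not among the genes tested. Without the block neither Ndufc1 nor Samhd1 was called, at log2 fold changes of -1.23 and -1.01.

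**Figure D3:**
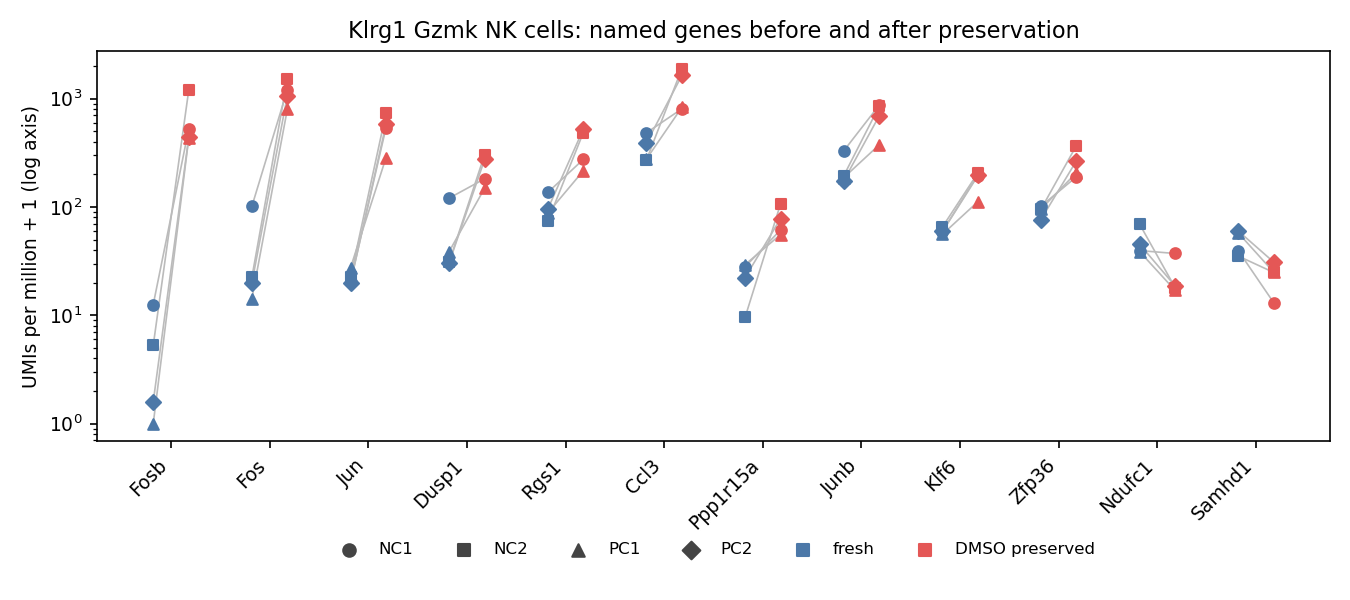
Levels of the 12 named genes (horizontal axis) as CPM plus 1 (vertical log axis) in Klrg1 Gzmk NK cells; each symbol is 1 library, blue for fresh and red for DMSO preserved, and grey lines join the libraries of an animal. Fosb, Fos and Jun show the widest gaps, and NC1 changed little in Ndufc1, from 38.6 to 36.2.

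Of 15 tested genes of granules and death ligands none was called at any fold (median log2 fold change -0.09), and of 17 tested NK receptor genes none was called (median -0.10). Since 2.97% of all genes were called at any fold, counts of 0 in lists of this size lie near the background and are not a result about these genes. Over all 3739 genes the median was 0.0029. At an unadjusted p under 0.05, 537 genes passed, and DESeq2 called 12 genes at 2-fold. Gzma stood at 3648, 4958, 4028 and 5057 CPM in fresh and 2914, 4444, 4052 and 4053 in preserved cells (log2 fold change -0.18 ± 0.07, SE, adjusted p = 0.17, edgeR). Gzmb had a log2 fold change of -0.18 ± 0.08 (adjusted p = 0.31), Prf1 of -0.15 ± 0.08 (adjusted p = 0.40) and Ccl5 of -0.06 ± 0.05 (adjusted p = 0.60). Of 8 tested lymphocyte transcription factors, Id2 alone was called, and by less than 2-fold. Id2, an inhibitor of E proteins that NK cells need, fell from 243, 283, 253 and 307 to 129, 208, 204 and 221 CPM (log2 fold change -0.48 ± 0.11, SE, adjusted p = 0.017, edgeR), lower in 4 of 4 animals. Tbx21, lower in 3 of 4 animals, had -0.36 ± 0.15 (adjusted p = 0.27).

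The lists of other pathways add detail. They were chosen with results of these data known, and a count near the share of all genes, 0.508% higher and 0.16% lower at 2-fold and 2.97% called at any fold, is no result about a list. Of 22 tested genes of the immediate early and feedback list 9 rose 2-fold and the median log2 fold change was 0.46, while Btg1 fell by less than 2-fold. Of 13 tested genes of the heat shock list none was called at 2-fold, and the endoplasmic reticulum chaperone Hspa5 had a log2 fold change of 0.47 ± 0.13 (SE, adjusted p = 0.057, edgeR). Of 20 interferon-stimulated genes Ifitm2 rose by less than 2-fold. Of 22 genes of stress metabolism and apoptosis, Atf4 and Hmox1 rose and Bcl2 and Ddit4 fell by less than 2-fold. In preserved NC2, most UMIs of Hmox1 came from a single cell. The 7 Kupffer cell markers in the population summed to 251, 334, 639 and 645 CPM in fresh NC1, NC2, PC1 and PC2. After preservation they summed to 189, 1078, 799 and 629. Their part in the change of Hmox1 was not tested. No gene was called among 14 signal adaptors and kinases or 9 cytokine receptors, and among 13 homing genes Spn fell by less than 2-fold.

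The same genes rose in other cells of the libraries. In Klrg1-negative NK cells the log2 fold changes were 6.66 for Fosb, 5.0 for Fos, 3.88 for Jun, 2.89 for Dusp1, 1.65 for Rgs1 and 1.87 for Ccl3. In all other barcodes they were 5.99, 4.69, 3.76, 2.56, 1.63 and 1.84. These values come from the same 8 libraries and are not independent of each other. Fos was also higher in preserved than in fresh droplets with up to 100 UMIs, which went from 73.1, 30.7, 28.2 and 28.1 CPM in fresh NC1, NC2, PC1 and PC2 to 454, 776, 456 and 579, all below the preserved Klrg1 Gzmk NK cells. Dusp1 went from 121, 69.9, 62.8 and 72.6 to 467, 606, 269 and 410 in these droplets, each above the preserved NK cells of the same library. The part of free RNA in the changes was not tested.

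The differences between populations were tested directly. Against Klrg1-negative NK cells, the change with preservation differed for 1 of 7061 genes (0.0142%) at an adjusted p under 0.05, with 273 genes at an unadjusted p under 0.05. The gene was Ccl2, a chemokine for monocytes, with a difference of -1.15 ± 0.18 (SE, adjusted p = 0.002, edgeR). This difference comes from a joint fit of both populations, and separate fits gave log2 fold changes of -0.39 in the Klrg1 Gzmk and 1.07 in the Klrg1-negative cells. In fresh PC2, 112 of the 215 UMIs of Ccl2 came from 1 cell, without which its level there was 61.2 in place of 127 CPM.

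Against all other barcodes, 17 of 10664 genes differed (0.159%), 15 of them with the higher change in the population. Gzma, with log2 fold changes of -0.18 in the population and -0.51 in the other barcodes in separate fits, differed in the joint fit by 0.35 ± 0.06 (SE, adjusted p = 4.6e-05, edgeR). Ccl5 differed by 0.28 ± 0.05 (adjusted p = 2.8e-05) and Prf1 by 0.31 ± 0.07 (adjusted p = 0.0049). Of the AP-1 genes, Jun and Junb rose more in the population, by 0.83 ± 0.19 and 0.52 ± 0.10. All other barcodes are a mixture of cell types whose shares differed between fresh and preserved libraries. The part of these shares in the differences was not tested. The other 3 genes with the smallest p rested on few cells. In fresh PC2, 66 of 69 UMIs of the mast cell protease Cma1 came from 1 cell. In preserved PC2, 456 of 770 UMIs of S100a8, a calcium-binding protein of neutrophils, came from 1 cell, and in preserved NC2, 29 of 31 UMIs of the heme oxygenase Hmox1 did.

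**Figure D4:**
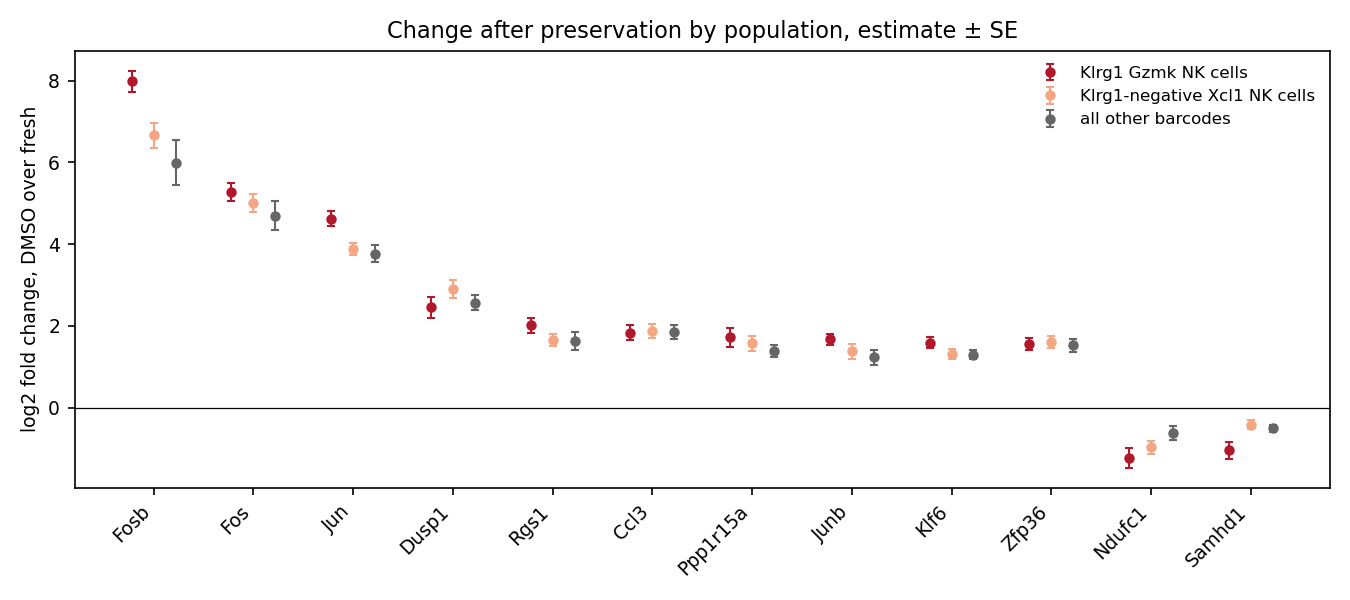
Log2 fold change of DMSO preserved over fresh cells (vertical axis) for the 12 named genes (horizontal axis) in 3 populations of the same libraries. Points are edgeR estimates and bars their SE from the test statistic, which is too small for Fosb in the Klrg1 Gzmk NK cells. Fosb is at 7.98 in Klrg1 Gzmk NK cells, 6.66 in Klrg1-negative NK cells and 5.99 in all other barcodes, and the order of genes is similar in the 3 populations.

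The diet comparison in fresh cells set 2 CDAA against 2 CSAA animals. Of 3894 genes 20 were at least 2-fold higher (0.514%) and 22 lower (0.565%) in the CDAA cells (edgeR quasi-likelihood test, adjusted p under 0.05). The calls were 18 higher and 16 lower with DESeq2 size factors, and 48 and 40 without a filter on low counts. They were 11 and 3 with DESeq2, and 11 and 2 with all 8 libraries in the fit, so the number of lower calls depended on the fit. On the marker lists, 2 of 4 tested Kupffer cell genes and 1 of 6 myeloid genes were among the higher genes. Fabp4, a fatty acid carrier of fat cells and macrophages, had 0, 0, 198 and 353 CPM in fresh NC1, NC2, PC1 and PC2. Summed over animals it had 703 UMIs in CDAA and 0 in CSAA cells, so it was at least 52.0-fold higher, taking 3 UMIs over the group as the floor. Spp1, which encodes osteopontin, had 246 against 0 UMIs and was at least 18.2-fold higher. For the 6 higher genes named by fold change, 8 of 43 alternative values lost the call, 4 of them for Vcan, 2 for RGD1561778 (without NC2 and with all 8 libraries in the fit), 1 for Spp1 (with all 8 libraries) and 1 for Lpl (with DESeq2).

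Apoe, an apolipoprotein, had 7.72, 0, 174 and 313 CPM, or 622 against 2 UMIs in sum, a ratio of 69.0 (95% interval 19 to 571, counting error only). Lpl, the lipoprotein lipase, had 151 against 1 UMIs and a ratio of 33.5 (5.92 to 1331). RGD1561778 had 138 against 1 UMIs and Vcan, a matrix proteoglycan of monocytes, 67 against 1. The macrophage genes Gpnmb and Cd63 had ratios of 12.0 and 7.23, and the complement genes C1qb and C1qc of 2.54 and 2.97. The counts of NC1 and NC2 were at or near 0 for the 6 genes with the largest fold changes, so no exact fold can be given for them.

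The same genes were higher in CDAA libraries outside the population. All 20 were higher in CDAA droplets with up to 100 UMIs and in CDAA B cells, and 19 were at least 2-fold higher in the droplets. For 19 of the 20, the level in CDAA droplets exceeded that in CDAA Klrg1 Gzmk NK cells. The level in CDAA B cells exceeded that in the NK cells for 4 of the 20. In B cells the ratio was 50 for Fabp4, 60.9 for Spp1, 14.7 for Apoe and 41.8 for Lpl. In the droplets it was 17.1, 19.5, 12.5 and 15.8. Vcan had a ratio of 14.9 in the population (95% interval 2.58 to 596), 1.81 in B cells (0.806 to 4.44) and 2.44 in droplets (1.78 to 3.38), and these intervals overlap. The call of Vcan (adjusted p = 0.046, edgeR) was lost without NC1, without NC2, with DESeq2 size factors and with all 8 libraries in the fit. The part of free RNA in these differences was not tested. In fresh NC1, NC2, PC1 and PC2 the 7 Kupffer cell markers summed to 251, 334, 639 and 645 CPM in the population, with C1qa or C1qb as the most abundant and Marco at 0 in NC1, NC2 and PC1. The 7 myeloid markers summed to 4625, 3665, 6114 and 7075, mostly Lyz2, with Clec4a3 at 0 by the rule.

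**Figure D5:**
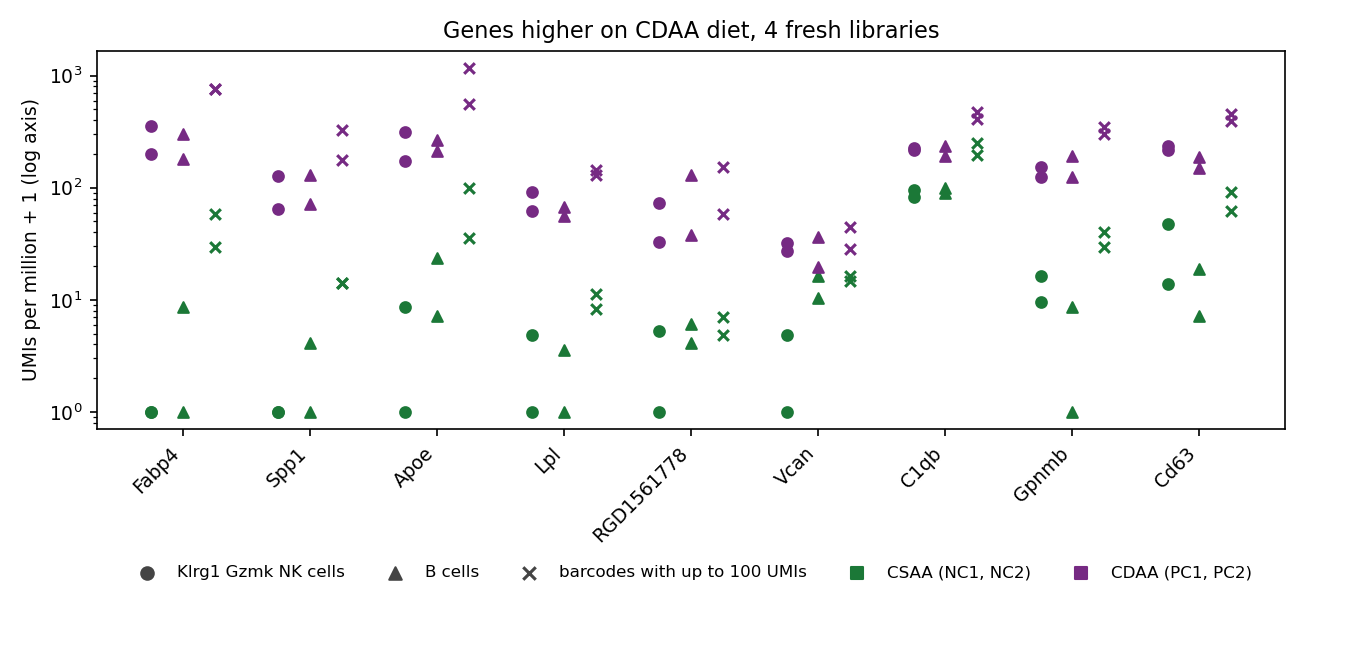
Levels of 9 genes higher on CDAA diet (horizontal axis) as CPM plus 1 (vertical log axis) in the 4 fresh libraries, green for CSAA and purple for CDAA; circles are Klrg1 Gzmk NK cells, triangles B cells and crosses droplets with up to 100 UMIs. Fabp4 in CDAA libraries lies at 198 and 353 in the NK cells and is also high in B cells and droplets.

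Of the 22 genes that were lower on CDAA diet, 18 were also lower in CDAA B cells and 12 at least 2-fold lower in CDAA droplets with up to 100 UMIs. The part of free RNA in these was not tested either. For the 6 of them named by fold change, 20 of 42 alternative values kept the call and the others lost it. LOC100360791 had 559.8 CPM in NC1 and 34.3, 45.3 and 40.8 in NC2, PC1 and PC2, so NC1 alone set its log2 fold change of -2.86, which was 0.22 without NC1. Its ratio of CDAA to CSAA was 0.135 in the population, 0.149 in B cells and 0.117 in droplets. Gzmbl3, a granzyme B-like gene, had 57.9, 317, 17.0 and 42.0 (log2 fold change -2.48 ± 0.52, SE, adjusted p = 0.03, edgeR), and -0.75 without NC2. Gzmbl3 is close in name and family to Gzmb, and reads may be split between such copies. Ppp1r37 had 27.0, 30.0, 5.67 and 2.96 (-2.94 ± 0.55), Mycl 30.9, 25.7, 5.67 and 4.73 (-2.51 ± 0.51) and Rnf187 54.0, 59.9, 18.9 and 10.6 (-2.15 ± 0.44). In these 3 genes both CSAA libraries lay above both CDAA libraries, on at most 18 UMIs per library. For Ppp1r37 and Mycl the SE is smaller than counting error. Ppp1r37 and Mycl lost the call without NC1, without NC2 and with all 8 libraries in the fit. Rnf187 lost it without NC2, without PC1, without PC2, with DESeq2 and with all 8 libraries. Marc2 had 92.6, 34.3, 20.8 and 9.46 (-2.36 ± 0.50), and -1.45 without NC1 and -1.63 without PC2, where the call was lost, as it was with DESeq2 and with all 8 libraries in the fit. Of 19 tested interferon-stimulated genes, 2 were lower, against 0.565% of all genes. Isg15 had 189, 146, 45.3 and 88.1 (-1.26 ± 0.29) and Ifi27 had 865, 206, 179 and 164 (-1.69 ± 0.38), with NC1 far above the others. The ratio of Ifi27 was 0.303 in the population, 0.278 in B cells and 0.437 in droplets, and that of Isg15 was 0.462, 1.09 and 0.71.

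Of 15 tested granule genes and 19 NK receptor genes, none was called between diets, with medians of 0.11 and -0.04 on the log2 scale. With 0.514% of all genes higher and 0.565% lower, counts of 0 lie near the background and are not a result about these lists. Prf1 had a log2 fold change of 0.11 ± 0.23, Gzmb of -0.30 ± 0.24, Gzma of 0.03 ± 0.18 and Ccl5 of -0.26 ± 0.14 (SE, adjusted p of 0.93, 0.70, 0.98 and 0.53, edgeR). A p that misses the threshold with 2 animals per diet does not show that the levels were alike. Xcl1 had 251, 544, 676 and 729 CPM in fresh NC1, NC2, PC1 and PC2 (0.78 ± 0.27, adjusted p = 0.24). In fresh PC2, 348 of its 1233 UMIs came from 1 cell.

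In preserved cells, 18 of 4514 genes differed between diets at 2-fold (0.399%), with 453 at an unadjusted p under 0.05. Fabp4 was again high, with 4.03, 3.41, 259 and 341 CPM in preserved NC1, NC2, PC1 and PC2 (log2 fold change 6.21 ± 0.40, SE, adjusted p = 0.00021, edgeR), as was Apoe with 12.1, 10.2, 196 and 188 (4.01 ± 0.32, adjusted p = 0.00076). Both fold changes rest on very few UMIs in preserved NC1 and NC2, whose counting error exceeds the SE given. Among the 8 lower genes was Tgfb1, a cytokine that restrains NK cells, with 80.5, 34.1, 4.00 and 7.86 (-3.13 ± 0.51, adjusted p = 0.039), on 3 to 20 UMIs per library.

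The diets were also compared for the change with preservation. Of 3739 genes, 1 differed (0.0267%), with 162 at an unadjusted p under 0.05. It was S100a8, with 181, 68.5, 58.6 and 118 CPM in fresh NC1, NC2, PC1 and PC2 and 28.2, 64.8, 93.4 and 378 in preserved cells, a difference of 2.79 ± 0.48 (SE, adjusted p = 0.049, edgeR). The call was lost with DESeq2 size factors (adjusted p = 0.098, edgeR), and without the block no gene was called. In fresh NC1, 34 of its 47 UMIs came from 1 cell. Without the cell that held most UMIs, the level was 50.4 in fresh NC1 and 155 in preserved PC2.

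Compared with all other barcodes, the diet difference in fresh cells differed for 29 of 11133 genes (0.26%). The 5 with the smallest p were S100a9 with a difference of -1.52 ± 0.18, Gimap7 with 1.03 ± 0.16, S100a8 with -1.32 ± 0.23, Cd59 with -0.82 ± 0.15 and Mcpt8l3 with 1.11 ± 0.21 (SE, log2 scale, edgeR). In fresh NC1, 1 of the 2 CSAA libraries, 98 of the 116 UMIs of S100a9 came from 1 cell, and its level was 448 CPM with and 69.8 without that cell. The difference of S100a9 was not fitted without that cell. Gimap7, a GTPase of lymphocytes, had a log2 fold change of 0.48 in the population and -0.46 in the other barcodes in separate fits. The T and NK cell kinase Lck differed in the same way, with 0.28 and -0.41 and a difference of 0.77 ± 0.15 (SE, adjusted p = 0.00021, edgeR). The other barcodes are a mixture of cell types, and the part of their proportions in these differences was not tested.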

How the data were processed

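Immune cells of 4 rat livers were profiled fresh and after DMSO cryopreservation by droplet single-cell RNA sequencing (Chromium 3′ v2 chemistry). The authors deposited raw UMI counts per gene and barcode, made per the labels with Cell Ranger 2.1.1, bcl2fastq 2.17.1.14 and STAR on Rnor6.0 with Ensembl 86 genes. The counts are not normalized. Barcodes were kept with at least 500 UMIs and under 20% mitochondrial UMIs, and the population was cut by the rule given above. No doublets were removed, but leaving out the barcodes with the highest Scrublet scores (0.8% per 1000 barcodes) was tried after seeing the data, and 33 of the 1240 cells were among them. UMIs were summed per library and tested with edgeR 4.0.16 (R 4.3.3, TMM scaling, filterByExpr), after recovery of known changes had been tested on simulated data. Genes were called at an adjusted p under 0.05 and at least 2-fold, and differences between groups at any fold. The SE of a log2 value was its absolute size divided by the square root of the F statistic of the test. It can be too small where a group holds few UMIs. Single values were compared by exact permutation tests over all sign changes or assignments, and scipy 1.17.1 gave the exact intervals. Fresh and preserved libraries were paired because they come from the same animal, and their deviations from the group means correlated by 0.234, 0.265, 0.380 and 0.560 in NC1, NC2, PC1 and PC2. p-values measure the spread between 4 animals. Named were the 10 largest changes per direction with preservation in 4 of 4 animals, the 6 largest per direction with diet, the 5 smallest p of each difference, the 20 largest ratios over other barcodes and the leading members of each list. Genes named beside these, such as Lck in the diet difference and those just under a threshold, were chosen after their values were seen. The cells and gene lists were chosen with earlier results of these data known. DESeq2 1.42.0 was an alternative.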

Additional observations from a re-analysis of the deposited data

Results flagged for a closer look

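A sample far from the other 3 of its group was found in 7 of 32 groups of 4 libraries, where chance gives about 1 in 20. Fresh NC2 had the highest median mitochondrial percentage of the population (7.01%). Fresh NC1 stood apart with 100.4 CPM of Fos, 119.7 of Dusp1 and 328 of Junb, each above the other fresh libraries. Among preserved libraries, NC2 was high in Fosb (1197), PC1 was low in Klf6 (111) and NC1 was high in Ndufc1 (36.2 CPM).

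A test of the difference between groups picked out 12 values. The change of S100a8 with preservation differed by 2.79 on the log2 scale between CDAA and CSAA animals. The change with preservation differed between the population and Klrg1-negative NK cells for Ccl2 by -1.15, and between the population and all other barcodes for Cma1 by -5.33, S100a8 by 1.26, Hmox1 by 1.40, Ccl5 by 0.28 and Gzma by 0.35. For Cma1, S100a8, Hmox1, S100a9 and Ccl2, most UMIs of at least 1 library came from 1 cell. The diet difference in fresh cells differed between the population and all other barcodes for S100a9 by -1.52 (98 of its 116 UMIs in fresh NC1 came from 1 cell), Gimap7 by 1.03, S100a8 by -1.32, Cd59 by -0.82 and Mcpt8l3 by 1.11. The list of 5 neutrophil markers holds S100a8 and S100a9 themselves, so its sum is no separate measure of neutrophils. Its summed level in the population was 641, 154, 217 and 283 CPM in fresh NC1, NC2, PC1 and PC2. It was 76.5, 88.7, 151 and 824 in preserved libraries, and Cxcr2 was at 0 in all 8. In fresh NC1, S100a9 stood at 448 and S100a8 at 181 of the 641 CPM. The part of neutrophils in the differences was not tested, nor was that of cell type proportions among all other barcodes.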

How the results depend on the processing

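Of 321 alternative values over 48 results, 264 kept their direction and side of the threshold or, for counts of genes, a similar size, 44 lost the threshold or were lower counts, 12 were higher counts and 1 reversed, LOC100360791 with diet, at 0.22 without NC1 and -3.70 without NC2. The 25 genes called with preservation were 55 without a filter on low counts, 12 with DESeq2, where 13 of the 25 had no adjusted p, 111 without the 2-fold minimum, and 14 (without PC2) to 42 (without NC1) with 1 animal left out. Without the replicate block of the animal, 12 genes were called, all among the 25, and Ndufc1 and Samhd1 were lost. Cells with at least 2 UMIs of Klrg1 and of Gzmk gave 17 genes, and cells without likely doublets 26. The 42 genes called with diet in fresh cells were 88 without the filter, 14 with DESeq2, 13 with all 8 libraries in the fit, and 25 to 73 with 1 animal left out, where the lone library of a diet is assumed to vary like the others. The 18 in preserved cells were 79 without the filter and 15 to 44 with 1 animal left out. The 1 gene whose preservation change differed between diets was 0 with size factors of DESeq2, 6 without the filter and 0 without the block. The 1 gene against Klrg1-negative cells was 3 and 14 with those size factors and without the filter. The share differed after preservation by 0.678 to 1.09 percentage points with 1 animal left out, and the diet difference of the share was 1.32 to 6.90. Removing barcodes with 2 or more UMIs of other cell types left no cell, and Lyz2 was seen in all. Small libraries of NC1 and NC2 limit low genes.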
